A study of Mus musculus with 15 samples.

Results

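Dio1, Kcnk1, Adgrv1 and Rgs16 were well expressed in untreated mouse liver and close to the array's background in nearly all livers taken after diethylnitrosamine and carbon tetrachloride. They are 4 of 9482 genes tested, and they were chosen by the difference between treated and untreated wild type, in which they held the 4 lowest places on the deposited scale. Since that difference chose them, their values in those arrays are given here as a description, with no test. All 8 probe sets annotated to 1 of these symbols alone are reported. Of these, 5 passed the filter on dim probe sets (a log2 value of at least 4 on at least 3 arrays).

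Liver RNA from 15 mice aged 15 weeks was measured, 1 array each, in a study of gut bacteria and the lipopolysaccharide receptor Tlr4 in liver cancer promotion. Untreated wild-type mice were C3H/HeOuJ (3 arrays). Treated wild-type mice, also C3H/HeOuJ, received the liver carcinogen diethylnitrosamine (DEN, 100 mg/kg) at 12 weeks and the liver toxin carbon tetrachloride (CCl4, 0.5 ml/kg) at weeks 13 and again 15, and were killed 48 hours after the last CCl4 (4 arrays). Treated mutant mice were C3H/HeJ with the allele Tlr4P712H, given the same DEN and CCl4 (4 arrays). In the antibiotic group, C3H/HeOuJ mice had vancomycin (500 mg/l) and, at 1 g/l apiece, metronidazole, neomycin and ampicillin in their water over 2 weeks that began at 10 weeks of age, before the same treatment (4 arrays). All 3 treated groups therefore share DEN, CCl4 and the 48-hour interval. No untreated mutant and no antibiotic group without DEN and CCl4 was analysed here, strain and Tlr4 allele cannot be told apart, and neither can the effects of DEN and of CCl4. Sex is given as male except for 1 mutant mouse with none stated. Nothing in the labels ties arrays to litters or batches, so the p-values below measure the spread between these arrays.

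The 4 genes belong to unrelated families. Dio1 encodes type 1 iodothyronine deiodinase, a selenocysteine enzyme that removes iodine from thyroxine and so makes the active hormone T3 in liver and kidney. In rodents its own gene is switched on by T3, and mouse hepatocytes also need the factor Hnf4a for it. Kcnk1 encodes TWIK-1, a potassium channel subunit of the tandem-pore family, whose members carry background potassium currents. Adgrv1 encodes a very large adhesion G protein-coupled receptor, best known from the Usher protein complex of hair cells and photoreceptors. Rgs16 encodes a GTPase-activating protein that shortens signalling through Gi and Gq class G proteins. In mouse liver it is known as a gene of periportal hepatocytes that follows feeding, glucose through the factor Mlxipl (ChREBP), and the daily rhythm.

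The promoters are shown as a description. The 4 genes were chosen by the same difference, so their shared fall says nothing about a shared promoter element. Each is the 300 bases from 250 before to 50 after the RefSeq start, in GRCm38.p6, printed 5′ to 3′ on the gene's strand. The windows are chr4:107307119-107307418 on the minus strand for Dio1, chr8:125994852-125995151 on the plus strand for Kcnk1, chr13:81633095-81633394 on the minus strand for Adgrv1 and chr1:153740103-153740402 on the plus strand for Rgs16. Capitals mark matches to any of 6 letter patterns.
Dio1: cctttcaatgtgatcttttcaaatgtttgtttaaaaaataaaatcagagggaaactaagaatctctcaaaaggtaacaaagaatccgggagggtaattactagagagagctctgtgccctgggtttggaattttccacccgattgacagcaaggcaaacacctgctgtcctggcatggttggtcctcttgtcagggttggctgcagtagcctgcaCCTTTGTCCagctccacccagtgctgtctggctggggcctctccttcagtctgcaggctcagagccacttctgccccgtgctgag
Kcnk1: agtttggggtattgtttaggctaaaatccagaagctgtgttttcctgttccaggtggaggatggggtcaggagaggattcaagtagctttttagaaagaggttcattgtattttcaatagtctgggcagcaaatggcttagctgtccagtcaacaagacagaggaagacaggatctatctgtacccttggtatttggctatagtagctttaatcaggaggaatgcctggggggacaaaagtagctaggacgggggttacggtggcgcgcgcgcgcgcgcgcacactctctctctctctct
Adgrv1: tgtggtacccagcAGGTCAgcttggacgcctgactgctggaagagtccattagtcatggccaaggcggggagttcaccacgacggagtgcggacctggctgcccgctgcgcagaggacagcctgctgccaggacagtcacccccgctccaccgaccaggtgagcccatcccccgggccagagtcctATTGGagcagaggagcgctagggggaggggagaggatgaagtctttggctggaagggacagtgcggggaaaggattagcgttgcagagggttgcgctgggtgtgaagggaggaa
Rgs16: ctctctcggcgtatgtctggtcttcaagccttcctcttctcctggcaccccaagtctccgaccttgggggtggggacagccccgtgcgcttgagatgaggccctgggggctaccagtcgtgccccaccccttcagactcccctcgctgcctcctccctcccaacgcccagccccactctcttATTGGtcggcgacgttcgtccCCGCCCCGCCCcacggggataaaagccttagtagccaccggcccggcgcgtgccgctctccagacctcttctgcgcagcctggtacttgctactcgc

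The patterns were searched on both strands and were chosen as a TATA box (TATAAA), an E box (CACGTG), a nuclear receptor core element (AGGTCA), a direct repeat read by Hnf4a-like receptors (GGNCAAAGG), a CCAAT box (CCAAT) and a GC box (CCGCCC). Dio1 held GGNCAAAGG on the opposite strand at bases -35 to -27 from the start, a pattern found in 1.87% of 32851 RefSeq promoters of this length. Adgrv1 held AGGTCA at -237 to -232, as 16.26% of promoters do, and a CCAAT box on the opposite strand at -64 to -60. Rgs16 held a CCAAT box on the opposite strand at -68 to -64 and a pair of overlapping GC boxes at -47 to -42 and -42 to -37. CCAAT is in 37.41% of promoters and CCGCCC in 35.66%. None of the 6 patterns was in the Kcnk1 window, and TATAAA (13.62% of promoters) and CACGTG (7.15%) were in none of the 4. No pattern was shared by all 4 genes, and the only one shared by more than 1 was CCAAT, in Adgrv1 and Rgs16. GC content was 49.7% for Dio1, 49.0% for Kcnk1, 63.3% for Adgrv1 and 66.0% for Rgs16, against a median of 52.7% over all promoters (quartiles 45.7% and 61.7%). A match is a run of letters in this window and was not tested as a binding site.

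Levels are the deposited log2 values, so a difference of 1 is a factor of 2 on the array's scale. A value under 4 was taken as close to background, and values under 4 have no order among themselves. Levels are not set against each other between genes, because probe sets differ in how strongly they bind. In bulk liver, fewer cells of a type and less RNA per cell cannot be told apart. All 10 hepatocyte markers were far above the floor on all 15 arrays, but they did not hold level alike. Alb (albumin) lay between 14.54 and 14.84, whereas the pericentral enzyme gene Cyp2e1 averaged 14.33 in untreated livers and 11.02, 10.80 and 11.65 in treated wild type, the mutant and the antibiotic group. The receptor gene Asgr1 averaged 11.81, then 10.99, 11.37 and 11.13. Over all genes, 26.7% fell in treated wild type, 21.5% in the mutant and 24.3% in the antibiotic group. Of 10 hepatocyte markers, 5, 3 and 4 fell in the same groups and 0 rose, with median differences of -0.26, -0.19 and -0.21. Their summed level on the log2 scale was 17.30 to 17.41 in untreated livers and 16.93 to 17.20 in treated ones. Hnf4a itself averaged 11.57 ± 0.08 in untreated livers (SD, n = 3) and 11.29 ± 0.10, 11.45 ± 0.09 and 11.29 ± 0.09 in the treated wild-type, mutant and antibiotic groups (n = 4 each). Markers of other cells differed more: 3 of 3 tested markers of dividing cells rose in each treated group, from a summed log2 level of 4.03 to 4.32 in untreated livers to 9.50 to 12.68 in treated ones. Of 3 monocyte and neutrophil markers tested, 3, 3 and 2 rose, and of 3 cholangiocyte markers 2, 3 and 2. Over all genes, 35.9%, 32.6% and 34.5% rose. In untreated livers the summed log2 level was 3.68 to 4.03 for monocyte and neutrophil markers and 4.59 to 4.84 for cholangiocyte markers. Even summed, these markers and those of dividing cells lay near the floor there. They had little room to fall, so nothing is read from their counts. Of 5 sinusoidal endothelial markers 1 rose in each treated group and 1 fell in the mutant, and Ighm, the 1 lymphocyte marker tested, fell in all 3. The part of these cells in the low levels of the 4 genes was not tested.

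In untreated livers Dio1 read 9.51, 8.93 and 9.50. In treated wild type it read 2.45, 3.03, 4.32 and 2.48, in the mutant 2.97, 3.35, 2.51 and 2.53, and in the antibiotic group 2.47, 2.89, 2.85 and 4.89. The untreated livers stood apart from every treated one, and of 12 treated arrays only replicate 3 of the wild type and replicate 4 of the antibiotic group lay above the floor. The means were 9.32 ± 0.33 (SD, n = 3) and, in the order above, 3.07 ± 0.88, 2.84 ± 0.40 and 3.27 ± 1.10 (n = 4 each). The difference that chose Dio1 was -6.25 on the deposited scale, and treated wild type was at least 37.7-fold lower when arrays under 4 are set to 4, as for every such bound here. Dio1 has a single probe set, 1417991_at.

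Kcnk1 read 8.94, 8.17 and 7.97 in untreated livers on 1448690_at, the probe set with the higher mean over all arrays, which stands for the gene. All 12 treated arrays were under 4: they read 2.38, 2.39, 2.33 and 2.56 in treated wild type, 2.47, 2.82, 2.63 and 2.26 in the mutant, and 2.54, 2.85, 2.64 and 2.41 in the antibiotic group. The channel gene was therefore not measured above background in any treated liver. The untreated mean of 8.36 ± 0.51 (SD, n = 3) lay at least 20.5-fold above the floor of 4. The second probe set, 1455896_a_at, was dimmer and missed the filter. It read 4.65, 2.98 and 3.83 in untreated livers and 1.66 to 2.10 in treated ones, so it crossed the floor on 1 array only.

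Adgrv1 read 8.42, 9.05 and 9.69 in untreated livers on 1425314_at. Treated wild-type arrays read 3.0, 3.10, 3.64 and 3.15, mutant arrays 3.37, 3.83, 3.14 and 3.22, and antibiotic arrays 2.8, 3.76, 3.26 and 3.82. Again every treated array was under the floor and every untreated one far above it, at a mean of 9.05 ± 0.64 (SD, n = 3), at least 33.2-fold above 4. The other probe set, 1421693_a_at, disagreed: it lay between 1.78 and 2.09 on all 15 arrays, untreated livers included. The result for this receptor therefore rests on 1 of its 2 probe sets, and whether they detect different transcripts was not tested.

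Rgs16 had the only probe set series with high readings in treated livers. On 1455265_a_at, which stands for the gene, untreated livers read 8.80, 9.76 and 9.84, and treated wild type read 3.27, 3.54, 4.62 and 3.15. Mutant arrays read 2.83, 8.27, 3.38 and 3.23, and antibiotic arrays 3.36, 3.52, 4.16 and 7.44. Mutant replicate 2 and antibiotic replicate 4 thus stood near the untreated livers, while the other 10 treated arrays were at or below 4.62, and no treated array reached the lowest untreated one. The means were 9.47 ± 0.58 (SD, n = 3) and then 3.65 ± 0.67, 4.43 ± 2.57 and 4.62 ± 1.91 (n = 4 each), the last 2 with the widest spread of any group among the 4 genes. The second probe set, 1426037_a_at, gave 8.68, 9.76 and 9.70 in untreated livers, 8.0 on mutant replicate 2 and 7.95 on antibiotic replicate 4, with 2.29 to 4.76 on the other treated arrays. The third, 1451452_a_at, was dim and missed the filter: it read 2.84, 4.95 and 5.35 in untreated livers, 2.08 and 2.63 on those 2 arrays, and 1.92 to 2.22 on the rest. It was therefore under the floor on both arrays where the other 2 probe sets were high.

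**Figure D1:**
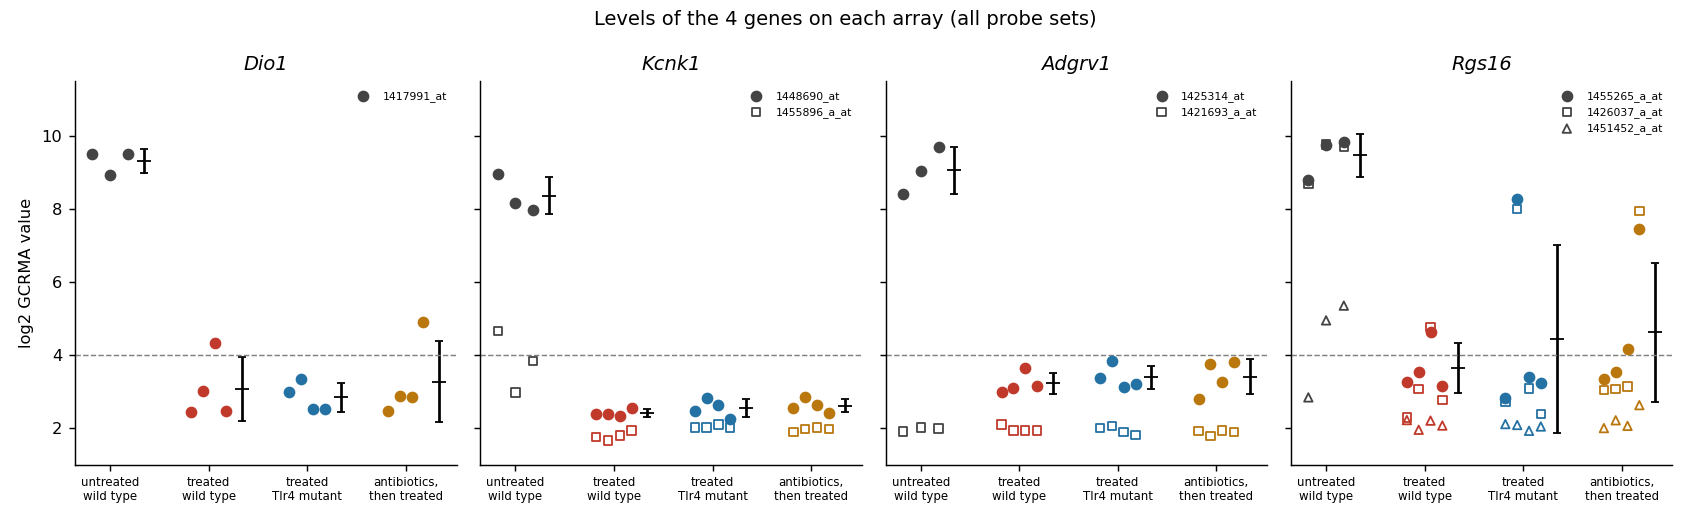
Deposited log2 GCRMA value (vertical axis) of every probe set of Dio1, Kcnk1, Adgrv1 and Rgs16 on each of the 15 arrays, by group (untreated wild type n = 3, each treated group n = 4). Filled circles are the probe set that stands for the gene, open symbols its other probe sets, bars the mean ± SD of the filled circles, and the dashed line the floor of 4; untreated arrays lie from 7.97 to 9.84 on the filled circles, and 2 treated arrays of Rgs16 (8.27 and 7.44) stand out among treated ones at or below 4.89.

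Among all genes tested, a mean of at least 8 in untreated livers that dropped under 4 after treatment was uncommon. It was seen in 10 genes in treated wild type (0.105% of 9482), 12 in the mutant (0.127%) and 9 in the antibiotic group (0.0949%), 15 genes in all. In the opposite direction, 81 genes (0.854%), 35 (0.369%) and 45 (0.475%) went from a mean under 4 to at least 8. The 7 genes that were high in untreated livers and under 4 by mean in all 3 treated groups were Adgrv1, Bmf, Dio1, Hectd2os, Kcnk1, Obp2a and Tenm3. Rgs16 met that mark in treated wild type alone, since the single high arrays lift its mean to 4.43 in the mutant and 4.62 in the antibiotic group. On the deposited scale the genes next in the ranking were Bmf (-5.75), a pro-death member of the Bcl2 family, Dct (-5.68) and Cyp2c37 (-5.52), against -5.82 for Rgs16, -5.83 for Adgrv1, -5.95 for Kcnk1 and -6.25 for Dio1. This order rests on treated values under the floor. With values under 4 set to 4, Cyp2c37 (-5.52) and Dct (-5.46) held places 1 and 2, Rgs16 (-5.31) and Dio1 (-5.23) places 3 and 4, Adgrv1 (-5.05) place 7 and Kcnk1 (-4.36) place 14, while Bmf stood at -5.20. The 4 genes are therefore not set off from those around them.

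**Figure D2:**
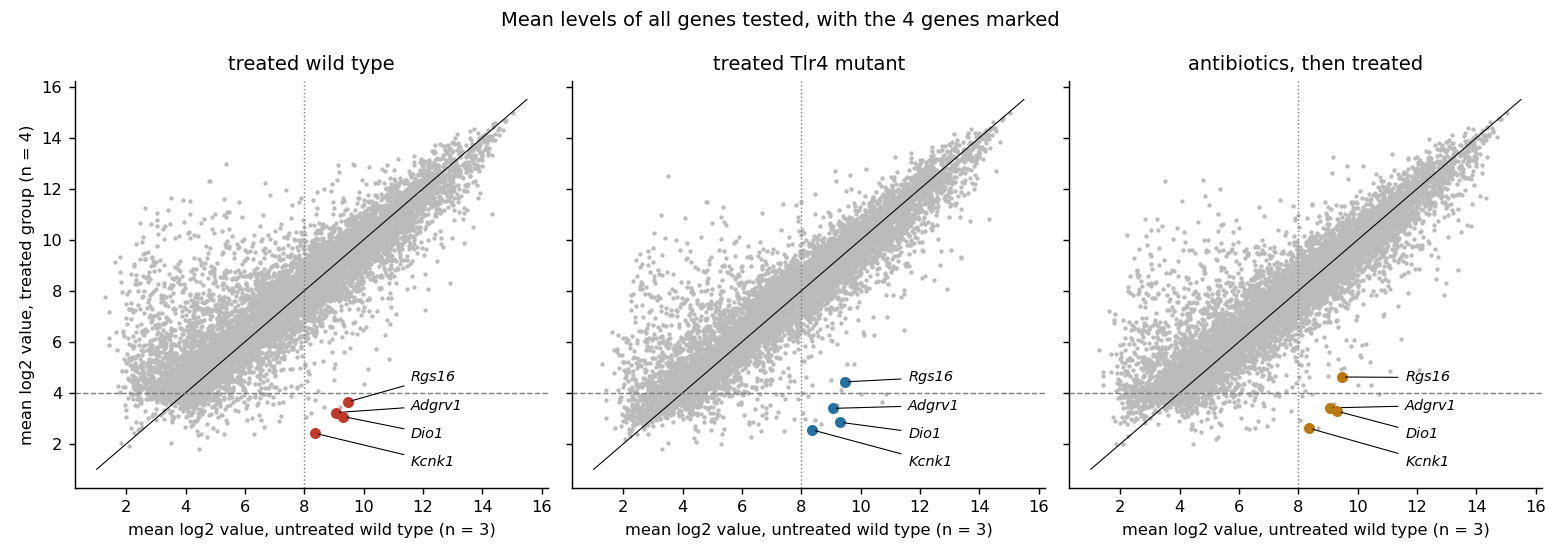
Mean log2 value of each of the 9482 genes in untreated wild type (horizontal axis, n = 3) against its mean in each treated group (vertical axis, n = 4), with Dio1, Kcnk1, Adgrv1 and Rgs16 in colour. The solid line marks equal levels, the dotted line 8 and the dashed line the floor of 4; the 4 genes lie at 8.36 to 9.47 across and at 2.41 to 4.62 up.

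Whether the levels were also low without functional Tlr4, or after antibiotics, is read from the mutant and antibiotic groups against untreated wild type. These comparisons share the 3 untreated arrays that helped to choose the genes, so they are described with no test, and as bounds, since most treated arrays were under the floor. Dio1 was at least 39.8-fold lower in the mutant and at least 34.1-fold lower in the antibiotic group, beside 37.7-fold in treated wild type. Kcnk1 was at least 20.5-fold and Adgrv1 at least 33.2-fold lower in every treated group, and these bounds are set by their untreated levels alone.

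Rgs16 was lower by at least 21.1-fold in the mutant and 23.7-fold in the antibiotic group, with the high arrays included. On the deposited scale its differences were -5.04 and -4.85, with an SE of 1.16 that was the largest of the 4 genes. Without mutant replicate 2 the first was -6.32, and without antibiotic replicate 4 the second was -5.79. Most of the treated arrays left in these fits were under the floor, so neither value is exact. The arrays of each treated group lay below all untreated ones for all 4 genes, as for 28.9% of genes in treated wild type, 22.8% in the mutant and 25.4% in the antibiotic group. Kcnk1 and Adgrv1 passed the filter through the untreated arrays alone, so they had to differ, and nothing is read from these counts.

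Among the 3 treated groups, the only comparison that uses no array of the choosing contrast is the antibiotic group against the mutant. For Dio1, 7 of these 8 arrays were under the floor, and for Kcnk1 and Adgrv1 all of them, so no difference is read for these 3 genes. Rgs16 was 0.19 ± 1.07 higher in the antibiotic group (95% interval -2.10 to 2.48, limma adjusted p = 0.933) and did not pass the test, where 12.3% of all genes did. Of its 8 arrays 5 were under the floor, the interval was wide on both sides of 0, and with values under 4 set to 4 the difference was -0.17.

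Against treated wild type, whose arrays helped to choose the genes, values are given with no test. Dio1 was above the floor on 1 of 4 treated wild-type arrays, 0 mutant arrays and 1 antibiotic array, and Rgs16 on 1, 1 and 2. With values under 4 set to 4, the Dio1 means were 4.08, 4.0 and 4.22. Of all genes, 30.8% passed the test between mutant and treated wild type and 14% between antibiotic group and treated wild type. For each of the 4 genes, the untreated livers stood on top and the 3 treated groups overlapped each other or lay together under the floor.

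Other genes of each pathway were described from fixed lists, without the 4 genes themselves and beside the median over all genes (0.10 in treated wild type, 0.13 in the mutant and 0.11 in the antibiotic group, each against the same 3 untreated arrays). All genes fell in 26.7%, 21.5% and 24.3% and rose in 35.9%, 32.6% and 34.5% of cases. Around Dio1, 22 genes of thyroid hormone transport, conversion and response were tested. Differences in the lists are on the deposited scale. Those of a gene with a group under the floor are not exact, and are given beside the value with readings under 4 set to 4 where a gene is named for them. In treated wild type 13 fell and 1 rose, in the mutant 11 fell and 1 rose, and in the antibiotic group 11 fell and 1 rose, with median differences of -0.57, -0.51 and -0.59. The list thus lay below the median over all genes in each treated group.

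Among the carriers that bring thyroid hormones into hepatocytes, Slco1a1 fell by 4.79 ± 0.67 in treated wild type, 3.57 ± 0.67 in the mutant and 7.15 ± 0.67 in the antibiotic group (limma adjusted p = 2.16e-05, 0.000441 and 6.86e-07). Antibiotic arrays read 3.56, 4.83, 4.82 and 6.41 for it, against 11.98 to 12.10 in untreated livers. The antibiotic group lay below the mutant by 3.58 (adjusted p = 0.002426). Slco1b2, another organic anion carrier, fell (-2.34 ± 0.17, -2.18 ± 0.17 and -2.19 ± 0.17), and the aromatic amino acid and T3 carrier Slc16a10 fell (-1.77, -1.49 and -1.97). The carrier gene Slco1a4 did not pass the test in any group (-0.30, -0.90 and -0.60). Serpina7, the thyroxine-binding globulin of plasma, fell (-2.14, -1.82 and -1.56). Ttr, the other plasma carrier of thyroxine, did not pass the test (-0.11, -0.04 and -0.10).

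Of the genes known to respond to T3 in liver, Thrsp fell (-2.16 ± 0.70, -4.09 ± 0.70 and -4.57 ± 0.70), the malic enzyme Me1 (-2.08, -1.93 and -2.39), and the factor Klf9 (-1.21, -0.52 and -0.65). Other T3-responsive genes did not pass the test in any group: Gpd2 (-0.12, -0.19 and -0.02), Cpt1a (0.35, 0.37 and 0.68) and Ppargc1a (-0.34, 0.36 and 0.55). Iyd, which recovers iodide from iodotyrosines, fell (-0.66, -1.01 and -0.79). Crym, a cytosolic T3-binding protein, was the 1 gene of the list that rose, by 0.84, 0.78 and 0.78. The receptor gene Thra lay near the floor, at 4.2 in untreated livers, and passed the limma test in the mutant alone (-0.31, adjusted p = 0.0349). With values under 4 set to 4, that difference was -0.20. Thrb, the main T3 receptor of liver, was between 1.69 and 2.49 on all arrays and could not be tested, and Dio2, the second activating deiodinase, between 1.73 and 2.64. Dio3, the inactivating deiodinase, has no probe set of a single symbol here.

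Selenoproteins moved in both directions. Without Dio1, 18 were tested: 8 fell and 5 rose in treated wild type, 5 fell and 6 rose in the mutant, and 5 fell and 6 rose in the antibiotic group (medians 0.03, 0.06 and -0.01). With each array centred on its own median, the mutant gave 7 that fell and 3 that rose and the antibiotic group 6 and 3. Txnrd3, a thioredoxin reductase, fell (-2.50, -1.48 and -2.49), and Selenoo (-2.21, -1.3 and -1.18), whereas Selenoh rose by 2.82, 1.85 and 1.99. Gpx1, the abundant glutathione peroxidase of liver, fell (-0.58, -0.95 and -0.74) from 14.13, and Gpx4, which protects membranes from lipid peroxides, passed the test in the antibiotic group alone (0.10, 0.19 and 0.39). Selenop, the plasma selenium carrier, fell in treated wild type (-0.28) and did not pass the test in the other groups (-0.16 and -0.20). Txnrd1 rose by 0.54, 0.63 and 0.30. No other selenoprotein tested was lower by more than 2.50.

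Of 10 genes that make selenocysteine or insert it, 3 fell and 2 rose in treated wild type, 2 fell and 3 rose in the mutant, and 3 fell and 2 rose in the antibiotic group. With each array centred on its own median these became 5 and 0, 3 and 2, and 4 and 1. Sepsecs, which converts serine to selenocysteine on its tRNA, fell (-1.62, -1.0 and -1.57). Sephs2, the selenophosphate synthetase and itself a selenoprotein, fell (-0.94, -0.77 and -0.80) from 13.35. Secisbp2, which recruits the insertion machinery, did not pass the test (-0.30, 0.13 and -0.05).

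Kcnk1 had few measurable relatives. Of 13 other tandem-pore channels, 9 were below the filter and 2 had no probe set of a single symbol, and the 2 that were tested, Kcnk5 and Kcnk6, moved in opposite ways in treated wild type and the antibiotic group. Kcnk5 (TASK-2), a channel of epithelia that responds to alkaline pH, fell (-1.97 ± 0.23, -1.80 ± 0.23 and -1.23 ± 0.23), from 8.13 to 6.16, 6.33 and 6.90. Kcnk6 (TWIK-2), a close relative of Kcnk1, rose by 1.96 ± 0.27 in treated wild type and by 1.34 ± 0.27 in the antibiotic group, but not in the mutant (-0.02). Untreated and mutant arrays were all under the floor for Kcnk6, so with values under 4 set to 4 it stood at least 1.41 and 0.79 above untreated livers in treated wild type and the antibiotic group. Among 5 other potassium channel subunits, Kcnn2, a calcium-activated channel, fell (-1.59, -1.21 and -1.38). Kcnj8 and Abcc9, which together form an ATP-sensitive channel of vessel wall cells, rose in treated wild type (1.74 and 1.36) and in the antibiotic group (1.33 and 1.59) and not in the mutant (-0.25 and 0.08). Markers of stellate cells, which wrap the liver's capillaries, rose in the same 2 groups but, unlike these 2 genes, also in the mutant. Of 6 tested, 6 rose in treated wild type, 4 in the mutant and 6 in the antibiotic group, and 0 fell. Their summed log2 level was 9.68 to 11.05 in untreated livers and 13.03 to 13.22, 11.08 to 11.68 and 12.08 to 12.88 in the treated groups. Their part in the channel results was not tested.

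Counts for the relatives of Adgrv1 hold genes whose direction the filter fixed. Adgra2 and Adgrl4 were under the floor on all untreated and mutant arrays. They passed the filter through treated wild-type and antibiotic arrays alone, so no direction is read from the counts. Of 9 other adhesion G protein-coupled receptors tested, 6 rose and 1 fell in treated wild type, 2 rose and 2 fell in the mutant, and 4 rose and 1 fell in the antibiotic group (medians 1.39, -0.21 and 0.34). With each array centred on its median, 1 rose and 4 fell in the mutant. Over all alternatives tried, between 3 and 9 rose in treated wild type, 0 and 3 in the mutant, and 1 and 5 in the antibiotic group. Adgra2, which rose in treated wild type, was under the floor in all untreated livers. With values under 4 set to 4 it differed there by 0.20. The macrophage receptor Adgre1 rose by 2.70 ± 0.25 in treated wild type, fell by 0.76 ± 0.25 in the mutant and did not pass the test in the antibiotic group (0.34). With values under 4 set to 4, its difference in the mutant was -0.58. Adgre5, a leukocyte receptor also known as CD97, rose by 1.70 in treated wild type and 0.91 in the antibiotic group and missed the threshold in the mutant (0.56). The endothelial receptor Adgrl4 rose by 1.5 and 0.76 in the same groups and differed by -0.38 in the mutant, while Adgrf5, of endothelium and lung, passed in none (0.11, -0.42 and 0.19). Adgrl4 was under the floor in all untreated and mutant arrays, and stood at least 1.16 and 0.43 above it in the other groups. Adgra3 was the 1 receptor that fell in treated wild type (-0.40) and fell in the antibiotic group (-0.41). Of 8 macrophage markers, 6 rose in treated wild type, 2 rose and 5 fell in the mutant, and 4 rose in the antibiotic group. Their summed log2 level was 9.07 to 10.55 in untreated livers, 11.75 to 12.42 in treated wild type, 9.56 to 10.20 in the mutant and 10.76 to 11.86 in the antibiotic group, and their part was not tested. Adgre1 is on both lists. Adgrg1 and Adgrg6 were under the floor on all arrays. None of the 9 listed partners of Adgrv1 in the Usher complex could be tested: 6 have a probe set, and all were below the filter, such as Whrn (1.23 to 3.53) and the motor Myo7a (2.98 to 3.97).

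Counts for the relatives of Rgs16 were in part fixed by the filter. Rgs1, Rgs4, Rgs10 and Rgs19 were under the floor in all untreated livers and passed the filter through treated arrays alone. They could not fall from a measured level, so no direction is read from the counts. Of 8 other regulators of G protein signalling tested, 6 rose and 1 fell in treated wild type, 3 rose and 1 fell in the mutant, and 5 rose and 1 fell in the antibiotic group (medians 1.55, 0.40 and 1.42). Rgs2, which acts mainly on Gq, rose by 3.37 ± 0.20, 1.03 ± 0.20 and 2.86 ± 0.20, and the antibiotic group lay 1.83 above the mutant (adjusted p = 5.911e-05). Rgs19 rose by 2.24, 1.15 and 1.40. Rgs5, known from pericytes, rose by 1.46 in treated wild type and 1.59 in the antibiotic group and did not pass in the mutant (0.41), and the lymphocyte gene Rgs1 gave 1.63, 1.44 and 0.14 in the same order. Rgs4 rose in treated wild type (1.11) and the antibiotic group (1.80) and did not pass in the mutant (0.40). Rgs10 rose in treated wild type (2.29) and passed in neither other group (-0.35 in the mutant and 0.42 in the antibiotic group). Rgs3 was the only relative tested that fell (-1.89, -1.46 and -2.01). With values under 4 set to 4, the differences in treated wild type were 1.56 for Rgs19, 0.99 for Rgs1, 1.90 for Rgs10 and 0.01 for Rgs4. In the antibiotic group they were 0.71 for Rgs19, 0.79 for Rgs1, 0.08 for Rgs10 and 0.30 for Rgs4, and in the mutant 0.46 for Rgs19. Rgs3 was under it on all treated wild-type and antibiotic arrays, at least 1.39 down in both. These counts depend on the filter and on single arrays: over all alternatives tried, between 2 and 7 rose in treated wild type, 1 and 3 in the mutant, and 2 and 6 in the antibiotic group. Of the stellate and macrophage markers given above, more rose in treated wild type and the antibiotic group than in the mutant, and their part was not tested.

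G protein alpha subunits moved in both directions. The list holds all classes, including Gnas, Gna12 and Gna13 outside the Gi and Gq classes on which Rgs16 acts. Of 10 subunits, 2 rose and 2 fell in treated wild type, and 3 rose and 2 fell in both the mutant and the antibiotic group. Gna14, a Gq class subunit, fell (-3.55 ± 0.28, -4.77 ± 0.28 and -4.46 ± 0.28), from 7.75 to 4.2, 2.97 and 3.28, at least 3.75 down where all arrays were under the floor. Gna12 fell in treated wild type (-0.51) and the mutant (-0.65). Gnai1 rose by 1.71, 1.40 and 1.16 and Gnai2 by 0.97, 0.55 and 0.84, while Gnai3 fell in the antibiotic group alone (-0.60). Gnai1 started under the floor, and with values under 4 set to 4 its differences were 0.61, 0.42 and 0.12. Gnaq passed in none (-0.15, -0.36 and -0.36).

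In mouse liver Rgs16 is known to follow glucose and the daily rhythm, so both settings were looked at. Of 16 genes of the carbohydrate response, 9 fell and 0 rose in treated wild type, 13 fell and 0 rose in the mutant, and 11 fell and 2 rose in the antibiotic group (medians -0.87, -0.92 and -0.94). The pyruvate kinase Pklr fell (-2.85, -1.57 and -2.06), the fructose kinase Khk (-1.91, -2.19 and -1.72), and the factor Klf10 (-1.78, -2.53 and -2.04). Mlxipl itself fell by 0.42 in treated wild type and 0.37 in the mutant, and differed by -0.21 in the antibiotic group without passing the test. Txnip, which restrains glucose uptake, fell in the mutant (-1.72) and missed the threshold in treated wild type (-0.89, adjusted p = 0.0512) and the antibiotic group (-0.86, adjusted p = 0.0631). Fasn, the fatty acid synthase, fell (-1.02, -1.47 and -2.65). Of 15 clock genes, 9 fell in each treated group, and 1, 2 and 1 rose (medians -0.67, -0.58 and -0.61). Clock rose by 1.35, 1.39 and 1.24, and Per3 fell (-1.56, -2.12 and -2.02). The clock output factor Dbp fell (-1.14, -1.40 and -1.69). Per2 passed in the mutant (-1.3) and the antibiotic group (-1.13) and not in treated wild type (-0.59), and Per1 passed in none (0.05, 0.12 and 0.45). Arntl (Bmal1) was under the floor in all untreated livers and on most treated arrays. It was called higher in the mutant, by 0.37 with values under 4 set to 4, and Nr1d1 was under the floor on all arrays (2.57 to 3.68). The hour of killing is not given in the labels, so time of day and treatment cannot be told apart.

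**Figure D3:**
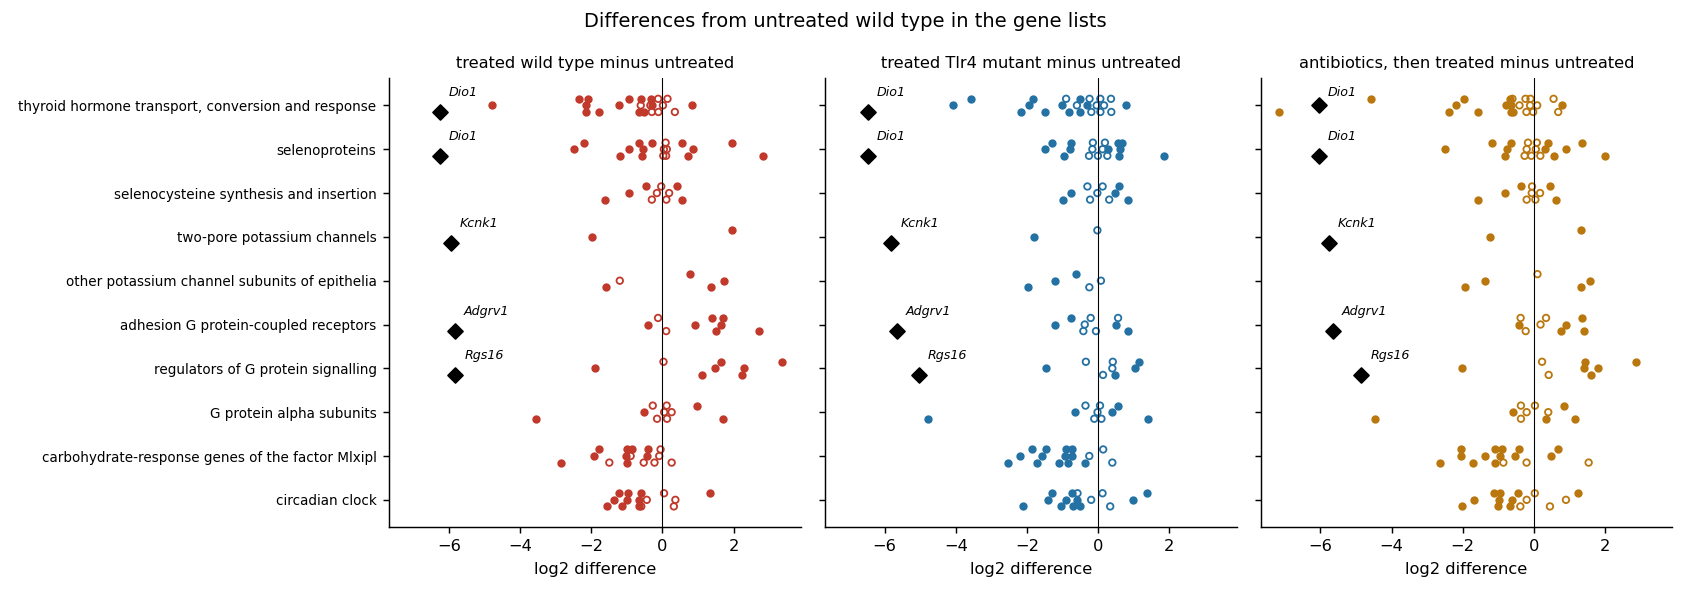
Log2 difference from untreated wild type (horizontal axis) of each gene tested in 10 lists, in treated wild type, the treated mutant and the antibiotic group (4 arrays each against 3). Filled circles passed the limma test at an adjusted p under 0.05, open circles did not, and black diamonds mark Dio1, Kcnk1, Adgrv1 and Rgs16 at -6.47 to -4.85. In treated wild type the adhesion receptors and regulators of G protein signalling lie mostly above 0 and the thyroid and carbohydrate lists mostly below it. Some of these receptors and regulators were under the floor in all untreated livers and could only rise.

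The high Rgs16 readings in mutant replicate 2 and antibiotic replicate 4 were next set beside other genes on the same arrays. Csrp3, a muscle LIM protein and the gene whose levels ran closest to Rgs16 over the arrays, read 6.17 on mutant replicate 2, against 3.10 to 4.21 on the other mutant arrays, and 5.41 on antibiotic replicate 4, against 3.82 to 4.99. It was picked for that likeness over all 15 arrays, so its high readings on these 2 follow in part from the choice. Txnip, a glucose-responsive target of Mlxipl, read 7.90 and 8.25 on these arrays, against 6.0 to 6.78 and 7.24 to 7.57 on the others of each group. In treated wild type, where Rgs16 was highest on replicate 3 (4.62), Txnip was highest there too (8.20, against 7.19 to 7.57). Dio1, Adgrv1, Rgs16 and Txnip were each highest on these same 3 arrays, as were 427 of 9482 genes (4.50%). For Adgrv1 all 3 readings, and for Dio1 the mutant one, were under the floor and so have no order.

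Other genes of the same settings did not all follow. Of the 16 carbohydrate-response genes 1 (Txnip) was highest on all 3 arrays, of the 15 clock genes 2 (Nr1d2 and Tef), and of the 22 thyroid genes 1 (Slco1a1). Khk read 9.66 on mutant replicate 2, inside the 8.88 to 9.80 of the other mutant arrays, and 10.34 on antibiotic replicate 4, just above the 9.58 to 10.14 of the others. Dbp was highest in its group on mutant replicate 2 (12.38) and lowest on antibiotic replicate 4 (11.02). Fgf21, a fasting and stress hormone on the carbohydrate list, missed the filter and was singled out after its values were seen: it read 8.22 on mutant replicate 2, 5.53 on wild-type replicate 3 and 3.76 on antibiotic replicate 4, and 2.09 to 3.44 on all other arrays. These arrays did not stand apart overall. Mutant replicate 2 lay outside the rest of its group by a wide gap (Dixon's ratio above 0.829) for 1.16% of genes and antibiotic replicate 4 for 1.59%, within the 0.559% to 2.95% of all treated arrays.

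**Figure D4:**
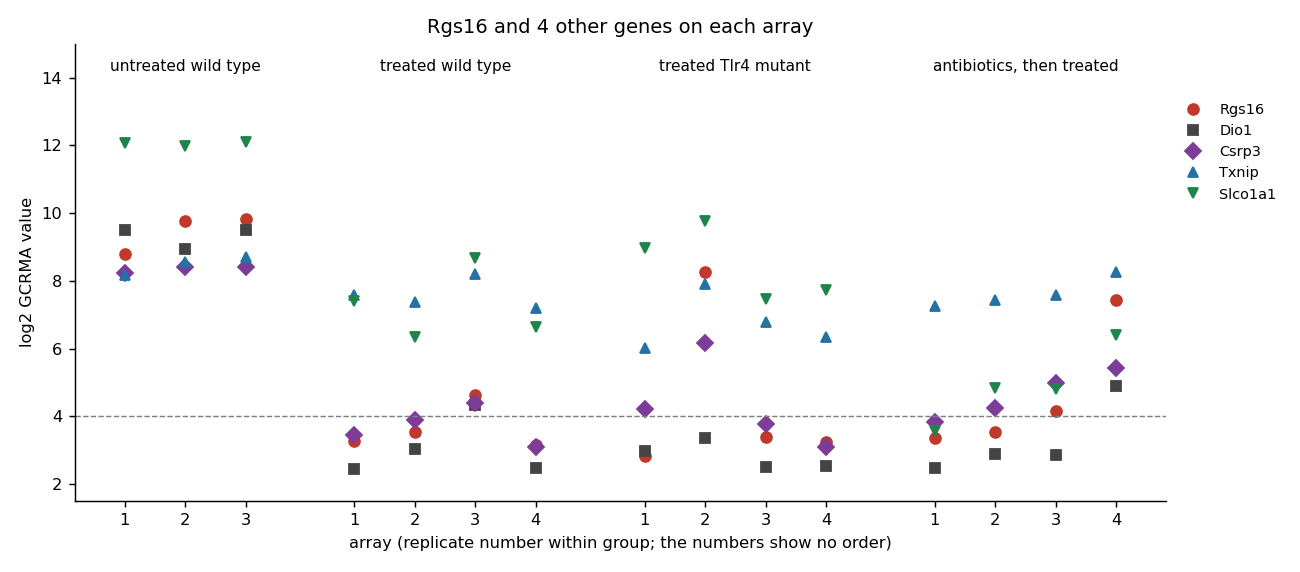
Log2 GCRMA value (vertical axis) of Rgs16, Dio1, Csrp3, Txnip and Slco1a1 on each of the 15 arrays (horizontal axis, replicate number within group), with the floor of 4 dashed. On mutant replicate 2 and antibiotic replicate 4, Rgs16 reads 8.27 and 7.44 and Csrp3 6.17 and 5.41, above the other treated arrays of their groups. Csrp3 was picked for its likeness to Rgs16 over these same arrays.

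Genes whose levels ran most like each of the 4 were found by Pearson correlation over the 15 arrays. Since the arrays fall into 3 untreated and 12 treated ones, such values share that step and carry no test. For Dio1 they were the glycosyltransferase Ugt3a2 (r = 0.987), Smim19 (0.987) and the carbonic anhydrase Car1 (0.981). For Kcnk1 they were Bmf (0.997), Rflna (0.994) and Trhde (0.985), a peptidase that degrades thyrotropin-releasing hormone. For Adgrv1 they were Trhde (0.985), Sntg2 (0.984) and Ugt3a1 (0.982), and for Rgs16 Csrp3 (0.951), the sulfotransferase Sult2a8 (0.931) and Gm2788 (0.925). Between the 4 genes themselves r was 0.808 to 0.977, lowest for Kcnk1 with Rgs16 and highest for Kcnk1 with Adgrv1. Ugt3a2 shows that a like pattern need not mean a fall to background: it went from 12.08 to 12.17 in untreated livers to 9.36 to 10.07 in treated ones, where Bmf went from 8.84 to 9.85 to 3.29 to 3.81.

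The genes next to each of the 4 on the chromosome gave no common picture. Beside Dio1, Hspb11 fell slightly (-0.57, -0.35 and -0.68), and Lrrc42 fell in treated wild type alone (-0.34, -0.01 and -0.22). Yipf1 passed in none (0.06, 0.13 and 0.11), and Ndc1, a nuclear pore protein, rose by 2.49, 1.89 and 1.98. Beside Kcnk1, Map3k21 was called lower in treated wild type (-0.96), from a mean of 4.02, near the floor, to 3.06, under it. Nothing is read from that difference. Coa6 fell in the mutant (-0.47), neither gene passed in the other treated groups, and Pcnx2 and Slc35f3 were under the floor on every array. Beside Adgrv1, the arrestin-domain gene Arrdc3 fell (-2.07, -1.90 and -2.96) and the RNA polymerase III subunit gene Polr3g (-0.77, -1.21 and -1.71). Lysmd3 passed in none (-0.04, 0.19 and 0.03), and Nr2f1 was under the floor on every array. Beside Rgs16, Glul, the glutamine synthetase of pericentral hepatocytes, fell (-3.29 ± 0.20, -4.02 ± 0.20 and -3.04 ± 0.20), from 12.46 to 9.17, 8.44 and 9.42. Its other neighbours with a probe set, Rgs8, Npl and Teddm2, were under the floor on every array. The 4 genes were chosen as the lowest of all genes in treated wild type, so no neighbour could fall as far there. Nothing is read from the neighbours' smaller falls. At least 1 tested neighbour of Dio1 and of Adgrv1 was called lower in no treated group.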

How the data were processed

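Liver RNA from 15 mice was hybridised to Affymetrix arrays. The authors deposited log2 probe set values made with GCRMA (no version), per the submitters' processing notes, a method that corrects background from probe sequence and normalises between arrays. Precision is limited by the number of arrays. All value columns were mapped to samples through their titles (0 left unused), and replicates were counted within groups in title order. A label text with other ages and a liver resection contradicts the rest and was not used.

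Of 45101 probe sets, 34945 carried 1 gene symbol in GEO's platform annotation, 932 several and 9160 none. A probe set needed a value of at least 4 on at least 3 arrays (15541 did), and each of 9482 genes was represented by its brightest one by mean. Group means were fitted to all arrays with limma 3.58.1 in R 4.3.3 (11 residual degrees of freedom), and a gene was called at a Benjamini-Hochberg adjusted p under 0.05 over all genes, in each of 6 comparisons. The procedure was also run on simulated data with independent normal noise. Those data lack the floor and the single high arrays seen here, so that run cannot vouch for calls on such genes. Promoters are RefSeq, GRCm38.p6, and the gene table of that assembly gave neighbours. Plots used Python 3.11.15 and matplotlib 3.10.9.

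The 4 genes and the 11 gene lists were chosen with earlier results of these data known. Besides the 4 genes, those named were a fixed set per list, up to 2 highest and 2 lowest called per list, the 3 most correlated and the 2 nearest protein-coding neighbours on each side, and the 3 next in the ranking. Alternatives were other scalings, filters, probe set rules, array weights, priors, samples fitted and leaving out each array.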

Additional observations from a re-analysis of the deposited data

Results flagged for a closer look

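Within groups of 4 arrays, single readings stood far from the other 3 (Dixon's ratio above 0.829, which chance gives in about 1 in 20 groups). For Rgs16 these were mutant replicate 2 on both bright probe sets, at 8.27 on 1455265_a_at (others 2.83 to 3.38) and 8.0 on 1426037_a_at (others 2.38 to 3.08), and antibiotic replicate 4 at 7.95 on 1426037_a_at (others 3.04 to 3.14). On 1455265_a_at antibiotic replicate 4 read 7.44 with a ratio of 0.803, under the limit. Dio1 on antibiotic replicate 4 (4.89) came to 0.827, also under it. The other 2 such readings lie below the floor of 4, where values have no order: Kcnk1 on 1455896_a_at at 2.1 in mutant replicate 3, and Adgrv1 on 1421693_a_at at 2.09 in treated wild-type replicate 1.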

How the results depend on the processing

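Each of 6 comparisons was recomputed under 26 alternatives. The 4 genes were chosen as high in the untreated arrays, so their calls against those arrays were fixed under every alternative and show no stability. In the mutant and the antibiotic group against untreated livers, Dio1 differed by -6.66 to -5.32 and -6.58 to -5.09, Kcnk1 by -6.01 to -4.36 and -6.04 to -4.36, Adgrv1 by -5.98 to -5.05 and -5.96 to -5.05, and Rgs16 by -6.32 to -4.4 and -5.79 to -4.43. The smallest Dio1, Kcnk1 and Adgrv1 differences came with values under 4 set to 4. With every probe set on its own, 9310 (treated wild type), 7933 (mutant) and 8705 (antibiotic) probe sets were called against untreated livers and 4443 in mutant against treated wild type, in place of 5938, 5136, 5577 and 2917 genes, with 15541 features tested in place of 9482. Antibiotic against treated wild type gave 1323 genes, and 820 to 1624 with 1 array left out (820 without antibiotic replicate 1, 838 without wild-type replicate 4). Antibiotic against mutant gave 1165 genes, 673 with only these groups fitted, 723 to 1375 with 1 array left out (723 without mutant replicate 1, 757 without antibiotic replicate 3) and 563 without both arrays with Rgs16 near 8, an alternative chosen after seeing the data. The causes were not tested. Scaling moved the share of calls that were higher from 57.4% to 42.4% (centred) or 43.8% (quantile) in treated wild type, from 60.3% to 43.4% or 47.1% in the mutant and from 58.6% to 44.5% or 45.5% in the antibiotic group. The median over all genes moved from 0.10 to -0.12 or -0.11, from 0.13 to -0.05 or -0.03, and from 0.11 to -0.07 or -0.05. In mutant against treated wild type the split moved from 42.8% to 50.5% or 55.3%, and in antibiotic against treated wild type from 35.4% to 45.6% or 49.8%. Differences between treated groups changed sign under some alternatives. They lie mostly between arrays under the floor, where values have no order. The values that follow only record this change of sign, carry no test here, and no direction is read from them. In mutant against treated wild type, Dio1 gave 0.04 with array weights and -0.43 to 0.19 with 1 array left out, and Rgs16 gave -0.50 without both arrays and -0.50 to 1.32. In antibiotic against treated wild type, Dio1 gave -0.33 without both arrays and -0.33 to 0.62. In antibiotic against mutant, Dio1 gave -0.11 to 0.70, and Rgs16 gave -0.06 with array weights, -0.17 with values under 4 set to 4 and -0.75 to 1.47 with 1 array left out. Of 2288 list counts, 2094 were within 1.5 times the reported one and 194 were not. No paired analysis was possible because array numbers run through all groups without a repeat.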
